A study of Mus musculus with 9 samples.

Results

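The BCL2 family was examined through 10 genes, chosen by name from a list with 3 roles: the pro-survival genes Bcl2, Bcl2l1 and Mcl1, the effector genes Bax and Bak1, and the BH3-only genes Bcl2l11, Bid, Bad, Bbc3 and Pmaip1. All 10 were among the 24411 genes of the expression table, and all 10 were among the 11753 genes that reached 1 TPM, a unit of transcript abundance scaled to transcript length and library total, in at least 3 of the 9 libraries and were tested. The libraries came from long-lived mouse macrophage cultures of 3 origins, with 3 lines of each: yolk sac of embryonic day 9.5 (YS lines), fetal liver of a later embryonic stage (FL lines) and adult bone marrow (BM lines). All the donors were C57BL/6 mice without a stated genetic change, and all the cultures were expanded and kept with 100 ng/mL of M-CSF, the growth factor of macrophages. Each line was an unsorted, non-clonal population expanded in its own vessel, from tissue pooled over more than 1 mouse, and so stands for neither a clone nor an animal. The 3 pairwise comparisons of the origins ask how the transcripts of the apoptosis machinery differ between macrophages of different origins.

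Proteins of the BCL2 family set the threshold of the mitochondrial pathway of apoptosis. BAX and BAK, when active, form pores in the outer mitochondrial membrane and release cytochrome c, which assembles the APAF1 apoptosome and activates caspases. BCL-2, BCL-XL (from Bcl2l1) and MCL-1 hold these effectors in check, and the BH3-only proteins, made or activated under stress, bind the pro-survival proteins or the effectors directly. In macrophages, signalling from M-CSF is needed for survival, and the BH3-only protein BIM (from Bcl2l11) is a known mediator of death after growth factor withdrawal. Much of this control acts on proteins, and MCL-1 and NOXA (from Pmaip1) are both short-lived. The values below are of mRNA only.

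Promoters from a RefSeq table (build GRCm38.p6) were searched at 15 start sites of 9 of the 10 genes, and that of Pmaip1 was not searched. The 250 bases before the start site are shown for 3 genes that the results turn on. Bax and Bak1, both effector genes, differed between BM lines and the other lines in opposite directions. Mcl1 was the most abundant of the 3 pro-survival members. The windows lie at chr7:45466899-45467148 on the minus strand (Bax), chr17:27028628-27028877 on the minus strand (Bak1) and chr3:95658471-95658720 on the plus strand (Mcl1). They are printed 5′ to 3′ on the gene's strand, and capitals mark matches, on either strand, to any of 6 motifs: the GC box GGGCGG, the CCAAT box CCAAT, the E-box CACGTG, the TATA box TATAAA, the forkhead site GTAAACA and the p53 half-site.
Bax: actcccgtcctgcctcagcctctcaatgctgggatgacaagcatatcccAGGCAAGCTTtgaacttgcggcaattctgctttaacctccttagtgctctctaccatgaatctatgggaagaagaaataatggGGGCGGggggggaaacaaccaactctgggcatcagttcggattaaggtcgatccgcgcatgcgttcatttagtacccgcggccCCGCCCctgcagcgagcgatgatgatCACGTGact
Bak1: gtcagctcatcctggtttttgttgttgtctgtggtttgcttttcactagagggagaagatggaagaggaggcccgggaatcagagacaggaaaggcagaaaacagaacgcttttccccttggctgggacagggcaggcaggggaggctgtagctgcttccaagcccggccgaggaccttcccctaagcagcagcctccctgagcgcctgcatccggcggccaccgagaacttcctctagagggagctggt
Mcl1: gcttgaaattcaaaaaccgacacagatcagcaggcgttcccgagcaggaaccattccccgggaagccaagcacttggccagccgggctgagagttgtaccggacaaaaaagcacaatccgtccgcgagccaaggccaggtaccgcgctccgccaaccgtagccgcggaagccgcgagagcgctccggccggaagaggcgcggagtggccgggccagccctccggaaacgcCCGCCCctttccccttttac

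The Bax window held a p53 half-site that began 201 bases before the start site, GC boxes that began 118 and 35 bases before it, and an E-box that began 9 bases before it. The Mcl1 window held 1 GC box, and the Bak1 window held no match to any of the 6 motifs. Of the 32851 promoters in the table, 32.7% held a GC box, 33.9% a CCAAT box, 6.02% the E-box, 12.4% the TATA box, 3.17% the forkhead site and 7.13% the p53 half-site. Among the member promoters searched, which leave out Pmaip1, the p53 half-site was found in that of Bax alone. Bbc3, a known p53 target like Bax, had no match to this site in its 3 windows. The forkhead site was found in 1 of the 2 windows of Bcl2l11 and 1 of the 3 windows of Bbc3. The Bcl2 window held 7 GC boxes. A match describes the letters of a window, and the absence of one says only that these letters are not there.

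Each library was a bulk mRNA library, so that fewer cells of a type and less RNA per cell cannot be told apart. Pearson correlations of log2(TPM + 1) between lines of a group ran from 0.91 to 0.96 in YS lines, from 0.95 to 0.96 in FL lines and from 0.98 to 0.99 in BM lines. All 10 of the macrophage markers checked were detected, while the T cell, B cell, fibroblast and epithelial lists had no gene at 1 TPM in 3 lines. The summed macrophage markers were lowest in YS line 1 (5496 TPM, against 12134 TPM or more in each BM line). BM line 2 differed from the other BM lines in the haemoglobin transcript Hba-a1, at 215 TPM against 0.30 TPM in each of the other 2. It was also the BM line nearest to the mean of YS lines for 7 of the 10 members, and for 47.4% of all tested genes. The macrophage markers Fcgr1 (1.68 to 42.1 TPM) and C1qa (280 to 670.5 TPM) were lower in each BM line than in any other line. The platelet factor gene Pf4, from a megakaryocyte list of which no other gene reached 1 TPM in 3 lines, gave that list a summed level of 38.6 to 393 TPM in BM lines, 230.3 to 2124 TPM in YS lines and 616 to 1730 TPM in FL lines. Of 5 endothelial markers 3 reached 1 TPM in 3 lines. Among them Kdr was at most 0.86 TPM in BM lines and 0.29 TPM in YS line 1 but 16.1 to 54.4 TPM in the other YS lines and all FL lines, and Vwf was 37.6 to 44.8 TPM in BM lines and at most 42.2 TPM in the others. In the neutrophil (S100a8), hepatocyte (Afp), mast cell (Hdc) and erythroid lists 1 gene each reached that level, and in the stem and progenitor list 2 did (Cd34 and Meis1), while S100a9, Elane, Kit and Flt3 were listed at or near 0 throughout. The part of these transcripts in the results was not tested. Results that rest on YS line 1 or BM line 2 are given without them.

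Transcript levels of most members differed between BM lines and the embryonic lines. Differences are on the log2(TPM + 1) scale and were tested with limma over all 11753 genes, with 3 lines in each group. A gene passed when its adjusted p was under 0.1, and was called when it also differed by more than 2-fold. Between YS and BM lines, 7 of the 10 members passed, against 37.9% of all tested genes. Of these, 6 were lower in YS lines (Mcl1, Bax, Bcl2l11, Bad, Bbc3 and Pmaip1), against 14.4% of all genes, and Bak1 was higher, against 23.5% of all genes. Between FL and BM lines, 8 members passed, against 27.6% of all genes. They were 6 members lower in FL lines (Mcl1, Bax, Bcl2l11, Bad, Bbc3 and Pmaip1), against 10.6% of all genes, and 2 higher in FL lines (Bcl2l1 and Bak1), against 17.0%. Both comparisons use the same 3 BM lines and are not independent of each other. Between YS and FL lines, only Pmaip1 passed, against 12.8% of all genes. Pmaip1 was also the only member past 2-fold in any comparison, against 12.8% of all genes called between YS and BM lines, 10.3% for FL against BM lines and 3.79% for YS against FL lines.

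**Figure D1:**
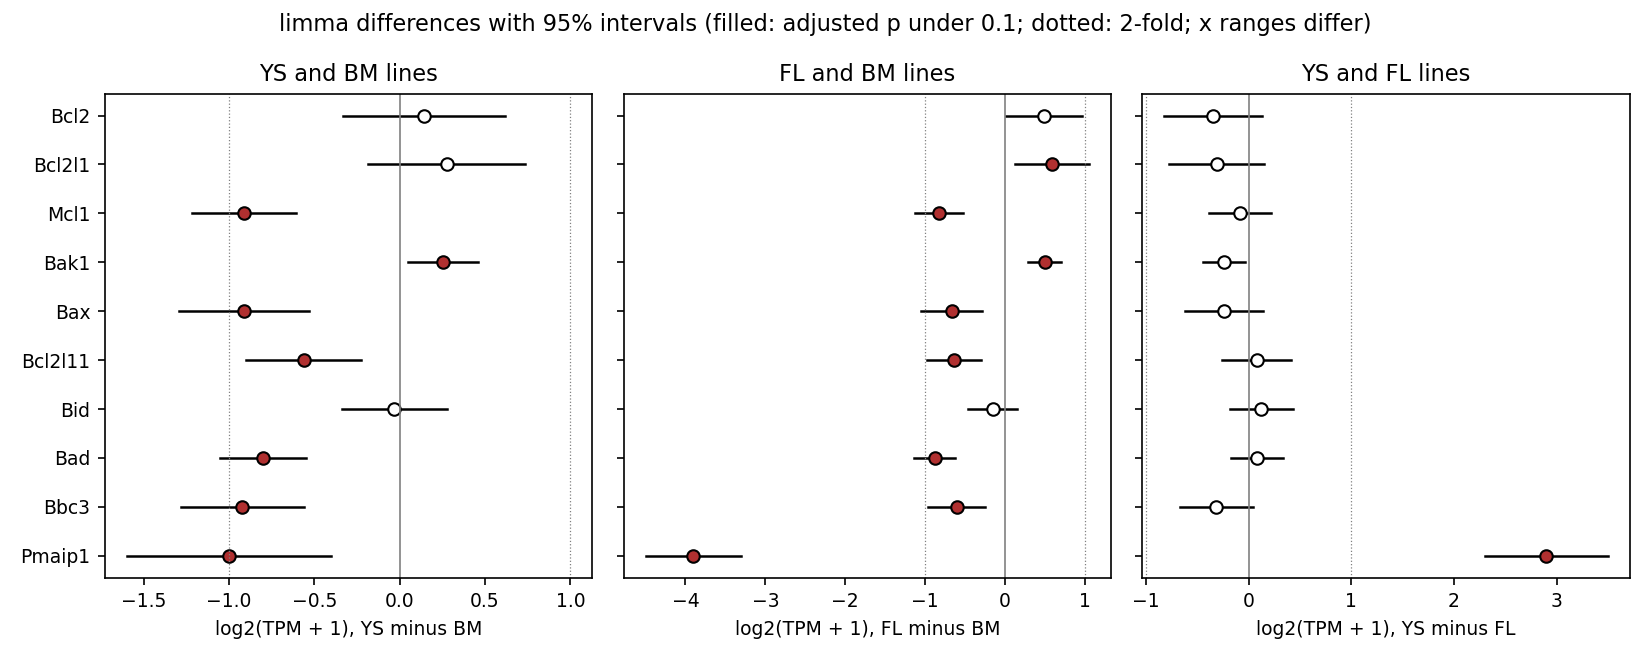
Differences of log2(TPM + 1) for the 10 members in 3 comparisons, with 95% intervals from limma (n = 3 lines per group). Filled points have an adjusted p under 0.1, dotted lines mark 2-fold, and the x ranges differ between panels: Pmaip1 lies at -3.90 between FL and BM lines and at 2.90 between YS and FL lines, and every other member lies within 2-fold of no difference.

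The median difference of the 10 members was -0.68 (log2) between YS and BM lines, where that of all tested genes was 0.11. Between FL and BM lines it was -0.62, against 0.09 for all genes, and between YS and FL lines it was -0.16, against 0.02. Quantile normalization and median-of-ratios scaling moved the median of all genes between YS and BM lines from 0.11 to -0.01 and 0.0021. Read relative to the median of all genes, values above 0 shrink and values below 0 grow by about 0.11. Quantile normalization moved single genes unevenly: Bax went from -0.91 to -0.90 and Mcl1 from -0.91 to -0.96 between these lines. The ranges of the lines did not overlap for 7 members between YS and BM lines, against 49.0% of all genes. For FL and BM lines this held for 9 members, against 49.5% of all genes. For YS and FL lines it held for 3 members (Bak1, Bbc3 and Pmaip1), against 26.1% of all genes. An exact permutation test of 3 against 3 lines cannot give a p below 0.1, so the tests given are those of limma.

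**Figure D2:**
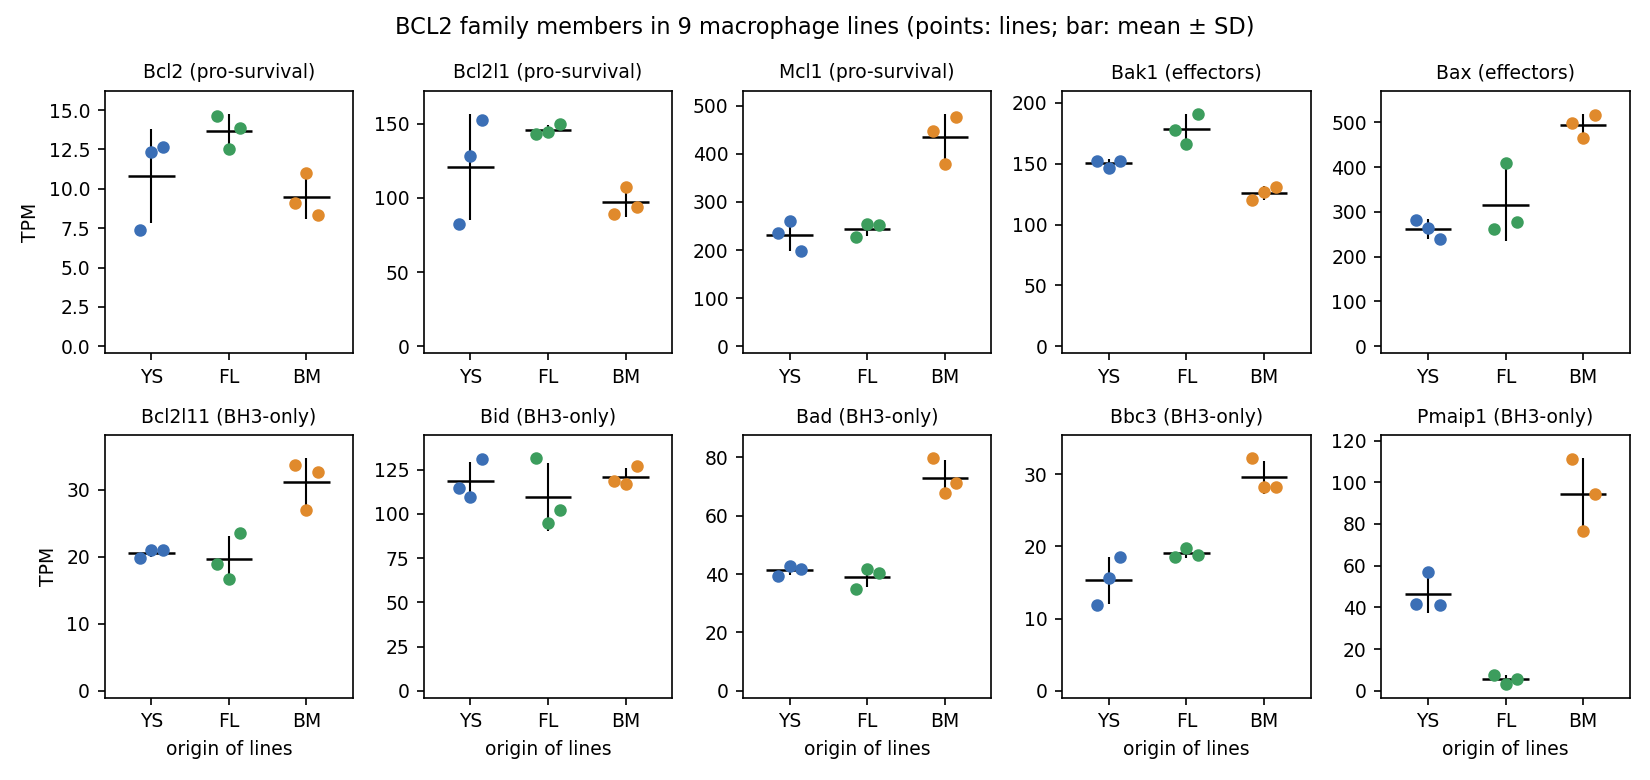
TPM of each member in each line, with the mean and SD of the 3 lines per origin as bars; each panel has its own linear scale from 0. The BM lines lie above all other lines for Mcl1, Bax, Bcl2l11, Bad, Bbc3 and Pmaip1 and below them for Bak1, the FL lines lie near 0 for Pmaip1 alone, and YS line 1 is the lowest of all 9 lines for Bcl2, Bcl2l1 and Bbc3.

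Among the pro-survival genes, Mcl1 was higher in BM lines, Bcl2l1 was higher in FL than in BM lines, and Bcl2 did not pass in any comparison. Mcl1 encodes the short-lived survival protein that myeloid cells depend on at many stages. Its level was 235, 261 and 197 TPM in YS lines 1 to 3, 226, 253 and 251 TPM in FL lines 1 to 3, and 447, 380 and 476 TPM in BM lines 1 to 3. All the BM lines stood above all the others, and YS and FL lines overlapped. The difference was -0.91 between YS and BM lines (SE 0.13, adjusted p = 0.0032) and -0.83 between FL and BM lines (SE 0.13, adjusted p = 0.0041). Relative to the median of all genes these were -1.02 and -0.92. BM line 2 was the lowest of the BM lines, and without it the differences were -1.004 and -0.92.

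Bcl2l1, which encodes BCL-XL and its short splice form, was 82.3, 128 and 153 TPM in YS lines 1 to 3. It was 143, 144 and 149.8 TPM in FL lines 1 to 3, and 89.5, 108 and 93.7 TPM in BM lines 1 to 3. FL lines were close together (coefficient of variation 2.35%) and all above BM lines, while YS lines spread widely (29.5%) and overlapped with both groups. The difference was 0.59 between FL and BM lines (SE 0.20, adjusted p = 0.075), and it no longer passed under 10 of 19 alternatives, including leaving out any 1 of the FL or BM lines (adjusted p = 0.0049 to 0.21 over the 19). Between YS and BM lines it was 0.28 (SE 0.20, adjusted p = 0.33). Without YS line 1, the lowest of all 9 lines, it was 0.53 (adjusted p = 0.016). Without YS line 3 it was 0.09 (adjusted p = 0.74), so that the outcome for Bcl2l1 rests on which YS lines are kept. A gene-level TPM does not separate splice forms, which holds for Mcl1 and Bcl2l11 too.

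Bcl2, the founding member of the family, was the least abundant member in YS and BM lines. It was 7.38, 12.4 and 12.7 TPM in YS lines 1 to 3, 14.7, 12.5 and 13.9 TPM in FL lines 1 to 3, and 9.08, 11.03 and 8.36 TPM in BM lines 1 to 3. All FL lines were above all BM lines, and YS lines spanned both. The difference was 0.49 between FL and BM lines (SE 0.21, adjusted p = 0.14) and 0.14 between YS and BM lines (SE 0.21, adjusted p = 0.63), with 95% intervals of 0.02 to 0.97 and -0.33 to 0.62. Without YS line 1, whose spread enters every comparison, they were 0.49 (adjusted p = 0.028) and 0.37 (adjusted p = 0.094). Without YS line 3 they were 0.49 (adjusted p = 0.115) and 0.02 (adjusted p = 0.95).

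The effector genes moved in opposite directions. Bax, whose protein waits in the cytosol and moves to mitochondria when activated, was the most abundant of the 10 members in each group by its mean. It was 283, 264 and 239 TPM in YS lines 1 to 3, 261, 409 and 278 TPM in FL lines 1 to 3, and 497, 465 and 516 TPM in BM lines 1 to 3. The BM lines were all above the others, and FL line 2 lay between them and the remaining lines. The difference was -0.91 between YS and BM lines (SE 0.17, adjusted p = 0.0069) and -0.67 between FL and BM lines (SE 0.17, adjusted p = 0.025). Leaving out 1 line at a time moved the second between -0.87, without FL line 2, and -0.54, with adjusted p up to 0.094.

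Bak1, whose protein sits in the outer mitochondrial membrane, was lowest in BM lines. It was 152, 146 and 153 TPM in YS lines 1 to 3, 178, 166 and 191 TPM in FL lines 1 to 3, and 120.0, 127 and 131 TPM in BM lines 1 to 3. No 2 groups overlapped, in the order FL, YS, BM. The difference was 0.50 between FL and BM lines (SE 0.09, adjusted p = 0.0067) and 0.25 between YS and BM lines (SE 0.09, adjusted p = 0.067). The second was 0.15 relative to the median of all genes, and it no longer passed under 7 of 19 alternatives, among them quantile normalization, median-of-ratios scaling and leaving out any 1 BM line (adjusted p = 0.049 to 0.29 over the 19). Bak1 also varied least of the members within groups: its residual SD of 0.07 (log2) was smaller than that of all but 1.45% of tested genes. Between YS and FL lines the difference was -0.24 (adjusted p = 0.14), which did not pass. The ratio of Bax to Bak1 transcripts in a line was 3.92 ± 0.24 (BM), 1.74 ± 0.16 (YS) and 1.80 ± 0.58 (FL lines) (SD, n = 3 each), with the lowest BM line at 3.66 and the highest other line, FL line 2, at 2.47.

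Of the 5 BH3-only genes, 4 were higher in BM lines than in both other groups, and Bid was not. Bcl2l11, which encodes BIM, a binder of all the pro-survival proteins, was 19.8, 21.0 and 21.0 TPM in YS lines 1 to 3. It was 18.9, 16.7 and 23.5 TPM in FL lines 1 to 3, and 33.7, 27.0 and 32.6 TPM in BM lines 1 to 3. The BM lines were all above the others, with BM line 2 closest to them. The difference was -0.56 between YS and BM lines (SE 0.15, adjusted p = 0.024) and -0.64 between FL and BM lines (SE 0.15, adjusted p = 0.018).

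Bbc3, which encodes PUMA, a p53-induced member of the same class, was 11.9, 15.6 and 18.5 TPM in YS lines 1 to 3. It was 18.5, 19.8 and 18.8 TPM in FL lines 1 to 3, and 32.2, 28.2 and 28.2 TPM in BM lines 1 to 3. The groups stood in the order BM, FL, YS without overlap, though the highest YS line (18.46 TPM) and the lowest FL line (18.54 TPM) were almost equal. The difference was -0.92 between YS and BM lines (SE 0.16, adjusted p = 0.0053) and -0.60 between FL and BM lines (SE 0.16, adjusted p = 0.029). The second did not pass without BM line 1 (adjusted p = 0.11). Between YS and FL lines it was -0.32 (adjusted p = 0.24), and it passed without YS line 3 (-0.45, adjusted p = 0.093).

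Bad encodes a BH3-only protein that growth factor signalling keeps phosphorylated and inactive. It was 39.4, 42.7 and 41.9 TPM in YS lines 1 to 3, 35.0, 41.8 and 40.3 TPM in FL lines 1 to 3, and 79.6, 67.6 and 71.2 TPM in BM lines 1 to 3. The BM lines were all above the others, and YS and FL lines overlapped. The difference was -0.80 between YS and BM lines (SE 0.11, adjusted p = 0.0028) and -0.88 between FL and BM lines (SE 0.11, adjusted p = 0.0015). Bad lies on chromosome 19, whose other 403 tested genes had a median difference of -0.52 between YS and BM lines and -0.79 between FL and BM lines. Of these genes, 28.3% and 38.0% had a difference at or below that of Bad. The part of this chromosome-wide difference in the result for Bad was not tested. Of the chromosomes that carry members, this was the one with the median farthest from 0 in both comparisons. Chromosome 18, which carries Pmaip1, came next between YS and BM lines, with a median of -0.31 for its other tested genes. Of these, 13.1% had a difference at or below that of Pmaip1, and the part of this in its result was not tested.

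Bid, whose protein links death receptors to mitochondria once caspase-8 has cut it, was the most abundant BH3-only transcript in each group by its mean. It was 114, 109.7 and 131 TPM in YS lines 1 to 3, 131, 94.9 and 102 TPM in FL lines 1 to 3, and 119, 117 and 127 TPM in BM lines 1 to 3. All 3 groups overlapped. The differences were -0.03 between YS and BM lines (95% interval -0.34 to 0.28, adjusted p = 0.87) and -0.15 between FL and BM lines (95% interval -0.46 to 0.15, adjusted p = 0.47).

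Pmaip1 had the widest range of the members. It encodes NOXA, a small p53-induced protein that binds MCL-1 and promotes its degradation. It was 41.6, 57.1 and 41.1 TPM in YS lines 1 to 3, 7.51, 3.30 and 5.85 TPM in FL lines 1 to 3, and 111, 76.6 and 94.6 TPM in BM lines 1 to 3. The groups were separate, in the order BM, YS, FL, and the lowest YS line stood well above the highest FL line. On the log2(TPM + 1) scale YS lines exceeded FL lines by 2.90 (SE 0.26, 95% interval 2.30 to 3.50, adjusted p = 0.0025), a 7.46-fold difference. The FL lines were 14.9-fold below BM lines on the same scale. The difference between YS and BM lines was -1.00003 (SE 0.26, 95% interval -1.60 to -0.40, adjusted p = 0.024), which is 2.00-fold. It therefore lay at the 2-fold threshold: it ranged from -1.15 to -0.87 over 19 alternatives and passed on its adjusted p in each (0.011 to 0.094). Without BM line 2 it was -1.14.

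By their order within a group, Bax and Mcl1 were the most abundant members and overlapped each other in YS and in BM lines. TPM is scaled to transcript length, so levels of different genes may be set side by side. In YS lines the means ran from Bax (262 TPM) and Mcl1 (231 TPM) through Bak1 (150.3 TPM), Bcl2l1 (121 TPM) and Bid (118 TPM) to Pmaip1 (46.6 TPM), Bad (41.3 TPM), Bcl2l11 (20.6 TPM), Bbc3 (15.3 TPM) and Bcl2 (10.8 TPM). Bcl2l1 overlapped with its neighbours Bak1 and Bid, Pmaip1 with Bad, and Bbc3 with Bcl2. In FL lines Pmaip1 was last instead, at 5.55 ± 2.12 TPM, below Bcl2 at 13.7 ± 1.08 TPM (SD, n = 3). In BM lines Pmaip1, at 94.2 ± 17.3 TPM, overlapped with Bcl2l1, at 96.9 ± 9.52 TPM (SD, n = 3).

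The make-up of each role differed between origins. The 10 members summed to 1508 ± 89.6 (BM), 1017 ± 36.8 (YS) and 1090 ± 65.2 TPM (FL lines) (SD, n = 3 each). Mcl1 made up 80.2% ± 3.44 of the summed pro-survival members in BM lines, against 63.9% ± 9.04 (YS) and 60.4% ± 1.42 (FL), and every BM line (76.2% or more) was above every other line (72.4% or less). Pmaip1 made up 26.9% ± 2.701 of the summed BH3-only members in BM lines, against 19.2% ± 3.58 (YS) and 2.83% ± 0.87 (FL). The ratio of the 3 pro-survival to the 5 BH3-only sums was 2.11 ± 0.26 (FL), 1.497 ± 0.12 (YS) and 1.56 ± 0.09 (BM lines), so that YS and BM lines overlapped in it. The ratio of Mcl1 to Pmaip1 was 5.00 ± 0.57 in YS lines and 4.67 ± 0.57 in BM lines, which overlapped, and from 30.2 to 76.7 in FL lines. The ratio of Bax to Bcl2l1 was 5.13 ± 0.70 (BM), 2.35 ± 0.97 (YS) and 2.17 ± 0.57 (FL lines). These sums and ratios are of transcripts and are descriptions without a test.

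**Figure D3:**
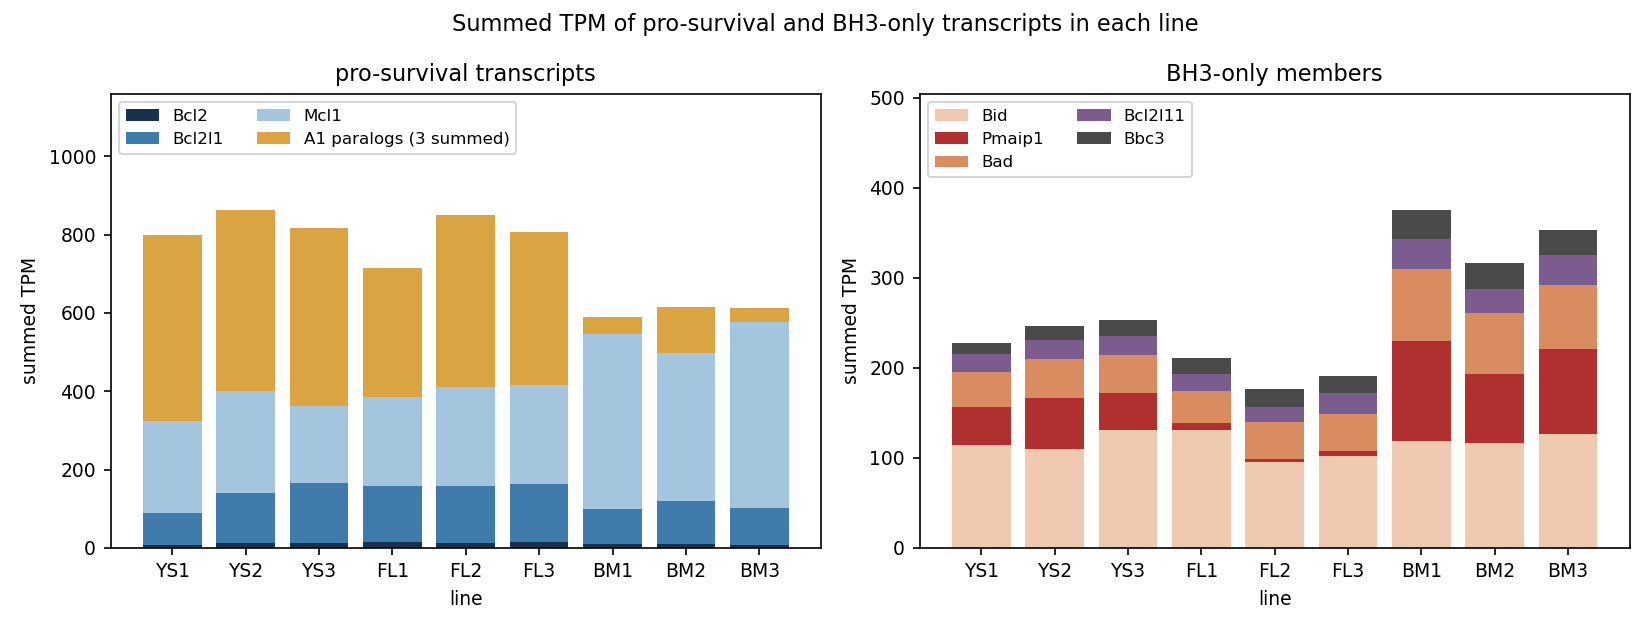
Summed TPM in each of the 9 lines: on the left the 3 pro-survival members with the sum of the A1 paralogs Bcl2a1a, Bcl2a1b and Bcl2a1d, on the right the 5 BH3-only members. The A1 paralogs sum to between 330 and 475 TPM in YS and FL lines and to between 34.7 and 117 TPM in BM lines, and the red Pmaip1 segment is thin in the FL lines.

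Of 16 other BCL2 family genes, 12 passed the filter on low values. Between YS and BM lines 4 of the 12 passed as higher in YS lines, against 23.5% of all genes, and 3 as lower, against 14.4%. The median difference was 0.31, against 0.11 for all genes. Between FL and BM lines 3 passed as higher in FL lines, against 17.0% of all genes, and 3 as lower, against 10.6%. The median there was -0.04, against 0.09 for all genes. The A1 genes, which encode a pro-survival protein induced by NF-κB in myeloid cells, were each called in at least 1 comparison. Bcl2a1b was 359, 315 and 278 TPM in YS lines 1 to 3, 247, 418 and 325 TPM in FL lines 1 to 3, and 4.87, 54.0 and 5.31 TPM in BM lines 1 to 3. BM line 2 was thus far above the other 2 BM lines and still below all other lines. The difference was 4.64 between YS and BM lines (SE 0.74, adjusted p = 0.0044) and 4.68 between FL and BM lines (SE 0.74, adjusted p = 0.0038). Without BM line 2 these were 5.70 (adjusted p = 1.5e-05) and 5.73 (adjusted p = 1.7e-05).

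Bcl2a1a was also called, as higher in YS than in BM lines (4.22, SE 1.098, adjusted p = 0.024, and 5.21 without BM line 2), and Bcl2a1d as higher in YS than in FL lines (1.35, SE 0.43, adjusted p = 0.0998). The call of Bcl2a1d did not hold under 16 of 19 alternatives. The A1 genes are near-identical copies that share reads, so how reads were split between them is uncertain, and their sum is the safer value. BM line 2 stood apart in this sum too, at 117 TPM against 43.5 TPM in BM line 1 and 34.7 TPM in BM line 3. Over the groups the sum was 464 ± 10.5 (YS), 388 ± 55.6 (FL) and 65.0 ± 45.2 TPM (BM lines) (SD, n = 3 each). Bcl2l2, which encodes BCL-W, was 30.6 ± 2.78 (YS), 27.5 ± 2.59 (FL) and 29.8 ± 0.92 TPM (BM lines). With A1 and Bcl2l2 added to the 3 pro-survival members, the summed pro-survival transcripts were 857 ± 30.5 (YS), 818 ± 72.2 (FL) and 635 ± 14.0 TPM (BM lines). The order of the group means was thus the reverse of that for the 3 members alone. Those summed to 541 ± 39.9 (BM), 403 ± 16.4 (FL) and 363 ± 38.3 TPM (YS lines). In both sums YS and FL lines overlapped, and only BM lines stood apart. The ratio of this wider sum to the BH3-only members ran from 1.65 to 2.04 (BM), from 3.34 to 3.67 (YS) and from 3.50 to 4.99 (FL lines). This sum was chosen after the values were seen and is a description.

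Of the less studied family genes, Bok, an effector-like gene, was 17.5, 7.02 and 4.82 TPM in BM lines 1 to 3, was listed at 0 in all YS lines and in FL lines 2 and 3, and was 0.23 TPM in FL line 1. It was called in both comparisons with BM lines (adjusted p = 0.0018 for YS and 0.0015 for FL lines). Bmf, a BH3-only gene, was higher in BM lines than in YS lines (difference -1.11, adjusted p = 0.041) and FL lines (-1.64, adjusted p = 0.012). The first did not pass without YS line 2, BM line 1 or BM line 3 (adjusted p up to 0.14). Bnip3, a hypoxia-induced mitophagy gene with a BH3-like domain, was 90.98 ± 7.83 (BM), 48.6 ± 10.3 (YS) and 27.7 ± 6.91 TPM (FL lines), and was called between FL and BM lines (-1.70, adjusted p = 0.0015). Bik, a BH3-only gene of the endoplasmic reticulum, was called as higher in FL than in BM lines (adjusted p = 0.049). It was 32.5, 17.2 and 0.85 TPM in FL lines 1 to 3 and at most 0.31 TPM in BM lines, and it did not pass without FL line 1 or 2 or without BM line 1 or 3 (adjusted p up to 0.14).

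**Figure D4:**
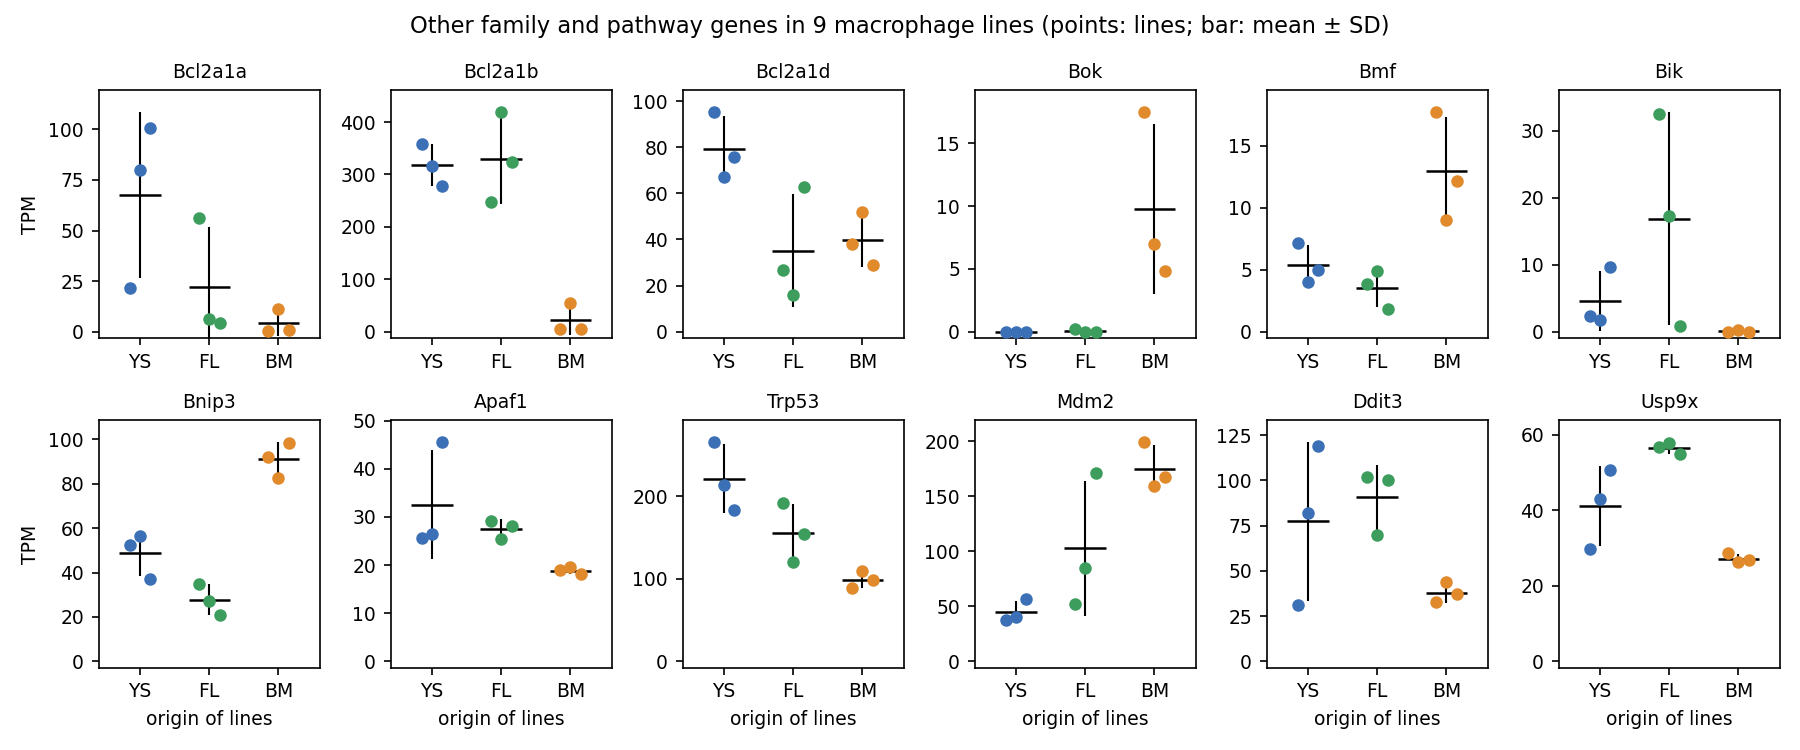
TPM of 12 other family and pathway genes in each line, with the mean and SD of the 3 lines per origin as bars; each panel has its own linear scale from 0. BM lines lie below the others for Bcl2a1b, Apaf1 and Trp53 and above them for Bok, Bmf and Bnip3, and Mdm2 overlaps between FL and BM lines.

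Downstream of the members, 14 genes of the apoptosome and of the caspases were tested. Between YS and BM lines 6 passed as higher in YS lines, against 23.5% of all genes, and 2 as lower, against 14.4% (median difference 0.37, against 0.11 for all genes). Between FL and BM lines 3 passed as lower in FL lines, against 10.6% of all genes (median 0.06, against 0.09). Apaf1, the scaffold of the apoptosome, was lowest in BM lines, at 32.5 ± 11.3 (YS), 27.6 ± 1.89 (FL) and 18.9 ± 0.71 TPM (BM lines) (SD, n = 3). Its difference was 0.71 between YS and BM lines (adjusted p = 0.035) and 0.52 between FL and BM lines (adjusted p = 0.11). The first did not pass without BM line 3 (adjusted p = 0.11). Casp9, the initiator caspase of the apoptosome, differed by 0.54 between YS and BM lines (adjusted p = 0.083), and no longer passed under 9 of 19 alternatives. Cycs, which encodes cytochrome c, was 147 ± 23.8 (YS), 119 ± 4.55 (FL) and 120.4 ± 5.98 TPM (BM lines) and did not pass in any comparison (adjusted p = 0.14 for YS and 0.95 for FL against BM lines).

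Of the 8 tested genes of the IAP (inhibitor of apoptosis) family, 2 passed as higher and 2 as lower in YS than in BM lines. Of the 8 genes of mitochondrial partners of the family, 2 passed as higher and 1 as lower in YS than in BM lines, and 3 as higher in FL than in BM lines. Of 20 tested regulators of the members, 5 passed as higher and 5 as lower in YS than in BM lines, while 6 passed as higher and 4 as lower in FL than in BM lines. Of all genes, 23.5% passed as higher and 14.4% as lower in YS lines. In FL lines these shares were 17.0% and 10.6%. The 3 lists lay near the share of all genes for genes higher in YS lines. For genes lower in YS lines, the IAP genes (2 of 8) and the regulators (5 of 20) lay above it. In FL lines the mitochondrial partners (3 of 8 higher) and the regulators (6 of 20 higher, 4 of 20 lower) lay above it. No IAP gene passed between FL and BM lines, and no mitochondrial partner passed as lower in FL lines. These shares were not tested. Trp53, the gene of the p53 protein that induces Bax, Bbc3 and Pmaip1, was 89.4, 109.6 and 98.04 TPM in BM lines 1 to 3 and at least 183 TPM in each YS line, while those 3 targets were higher in BM lines. Trp53 was called between YS and BM lines (difference 1.14, SE 0.19, adjusted p = 0.0052), and there it passed on its adjusted p in all 19 alternatives. Its difference between FL and BM lines was 0.63 (SE 0.19, adjusted p = 0.053). This second difference did not pass under 5 of 19 alternatives, among them leaving out FL line 1 or 3 or BM line 1 or 3 (adjusted p up to 0.17). Mdm2, a p53 target whose protein degrades p53, was 199.5, 159 and 167 TPM in BM lines 1 to 3 and 37.8, 39.9 and 56.7 TPM in YS lines 1 to 3 (difference -1.96, SE 0.37, adjusted p = 0.0076). In FL lines it ran from 52.5 to 171 TPM and overlapped with BM lines. Usp9x, which encodes an enzyme that removes ubiquitin from MCL-1, was higher in FL than in BM lines (1.03, SE 0.18, adjusted p = 0.0051), at 56.6 ± 1.53 against 27.2 ± 1.24 TPM (SD, n = 3). Ddit3, which encodes the stress factor CHOP, differed by 1.23 between FL and BM lines (SE 0.42, adjusted p = 0.072) and no longer passed under 9 of 19 alternatives.

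Over the 9 lines, the tested genes whose log2(TPM + 1) was most like that of Pmaip1, by Pearson's r, were Tpm1 (r = 0.98), Fgf13 (r = 0.98) and Dennd6b (r = 0.98). The 9 lines fall into 3 groups, which these genes share with Pmaip1, and the values are a description. Tpm1, a tropomyosin gene, ranged from 90.7 to 131 TPM in FL lines and from 199 to 222 TPM in BM lines.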

How the data were processed

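The data were poly(A)-selected, strand-specific RNA-seq of 9 macrophage lines (single reads of 75 nt). Per the labels' processing notes, reads were handled with Trim Galore 0.6.6, STAR 2.7.9a and RSEM 1.3.3, and the authors deposited 1 table of TPM per gene. The genome build and annotation are not given in the sources used here. TPM sums to the same total in every library and keeps no read depth, so the precision of a value is known only from the spread among 3 lines. The lines are separate cultures that may share donor tissue, and the p-values measure the spread among these cultures.

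Values were transformed as log2(TPM + 1), a gene was kept where 3 or more of the 9 libraries reached 1 TPM, and all 3 groups were fitted together with limma 3.58.1 (R 4.3.3, intensity trend, two-sided tests, Benjamini-Hochberg adjustment over 11753 genes). On the log2(TPM + 1) scale the change of low genes is understated. A gene was called at an adjusted p under 0.1 and more than 2-fold. The members, the other gene lists and the tests were chosen with earlier results of these data known. All 10 members are named, with every gene of the lists called in at least 1 comparison, Trp53, Apaf1, Casp9 and Cycs, and the 3 genes most like each called member; 1 gene that the rule names is not reported here. Bcl2l2 was named after its values were seen. The fit was tested on simulated data. The alternatives were another pseudocount, filter, scaling, trend, threshold or set of libraries, the replicate number as a block, and leaving out each line. Promoters and chromosome positions came from RefSeq tables, and 11158 of the tested genes had a chromosome.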

Additional observations from a re-analysis of the deposited data

How the results depend on the processing

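Each result was recomputed under 10 alternatives and with each of the 9 lines left out. The differences of Mcl1, Bax, Bcl2l11, Bad and Pmaip1 from BM lines kept their direction and passed in all 19, for both YS and FL lines, as did that of Pmaip1 between YS and FL lines. The count of members called between YS and BM lines, 1 as reported, rests on values near 2-fold. It was 0 with a pseudocount of 4, 2 with quantile normalization and 4 with median-of-ratios scaling. With 1 line left out it was 0 to 2. It was 0 without YS line 1, BM line 1 or BM line 3, and 2 without YS line 2 or BM line 2. Without YS line 3 it stayed at 1, but the member called was Bbc3, and Pmaip1 was at -0.92. The count of members past the adjusted p alone between YS and FL lines, 1 as reported, was 1 to 2 with 1 line left out (2 without YS line 3). The share of all genes past the adjusted p also moved with 1 line left out: from 22.4% (without BM line 3) to 40.3% for YS against BM lines, from 15.6% (without BM line 3) to 36.8% for FL against BM lines, and from 2.44% (without FL line 3) to 15.7% for YS against FL lines. Differences close to 0 changed sign only with 1 line left out: that of Bid between YS and BM lines ranged from -0.107 to 0.0196, of Mcl1 between YS and FL lines from -0.177 to 0.0242, and of Bcl2l11 between YS and FL lines from -0.0289 to 0.203. Lines share numbers across groups, but same-numbered lines did not deviate together (correlations from -0.12 to 0.09). With the replicate block, 7, 8 and 1 members passed between YS and BM, FL and BM, and YS and FL lines, the same counts as without it, and 1 was called in each. Read depth is unknown, and 3 lines per group limit what can be detected.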
